A study of Mus musculus with 9 samples.

Results

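Mouse dendritic cells carrying a hairpin against JmjD2d were compared with wild-type dendritic cells after the same LPS treatment. The comparison used 6 of the 9 arrays of the study, 3 per group, chosen by their labels, and arrays that share a biological replicate number were paired. The question, as the series title puts it in other words, is which genes expressed after LPS depend on JmjD2d. All groups started from bone marrow progenitors expanded in IL-3, IL-6 and SCF (20 ng/ml of each). Differentiation took 8 days. SCF at 5 ng/ml accompanied the GM-CSF supernatant (4%) in the first 4 days and was left out of the last 4. The wild-type LPS group was labelled untransduced and received 100 ng/ml LPS for 4 h. The growth protocol given for these samples also describes the hairpin infection, as it does for every sample, and the transduction label was followed here. The knockdown LPS group came from progenitors infected with a retroviral vector, pSir-delta U6CHisD, that carried 1 hairpin against the JmjD2d coding sequence; these cells were selected in 2 mM histidinol and then received the same LPS treatment. Unstimulated wild-type cells, the third group of 3 arrays, entered the fit and are given here as levels beside the others. The 9 arrays include no control hairpin and no unstimulated knockdown cells, so loss of JmjD2d, infection and drug selection cannot be told apart. A difference already present before LPS cannot be told apart from one that arose after it. The labels describe the replicates as independent cultures.

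JmjD2d, the product of Kdm4d, is an enzyme that demethylates lysine 9 of histone H3, where methylation marks silent chromatin. LPS, a component of the outer membrane of Gram-negative bacteria, binds Toll-like receptor 4 and sets off NF-kB and interferon regulatory factor signalling. Dendritic cells respond by secreting cytokines and by maturing: they raise costimulatory ligands and the chemokine receptor that leads them to lymph nodes, and present antigen on MHC molecules to T cells. Cultures of bone marrow in GM-CSF hold macrophage-like cells and granulocytes beside dendritic cells.

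Values are log2 RMA values, in which a difference of 1 is a doubling. RNA was measured on whole-transcript arrays, where the number of arrays limits the precision. Each gene is represented by its brightest single-gene probe set, which gave 19938 genes. Differences are knockdown minus wild-type after LPS, with the standard error (SE) of a paired limma fit. A gene was called when its Benjamini-Hochberg adjusted p was under 0.05, and rose or fell is used for called genes. Levels of different genes are not compared. Gene lists were chosen with earlier results of these data known, so their counts are descriptions. In a culture of mixed cells, fewer cells of a type and less RNA per cell cannot be told apart.

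Kdm4d itself read 7.43, 7.11 and 7.40 in knockdown replicates 1, 2 and 3, and 7.79, 7.54 and 7.74 in the wild-type LPS arrays. The groups did not overlap, and each knockdown array was the lower of its pair. The difference of -0.37 (SE 0.14, n = 3 pairs) left 77.1% of the wild-type value on the array's scale, and it did not pass the test in the paired limma fit (adjusted p = 0.235). Unstimulated wild-type arrays read 7.24, 7.65 and 7.62 and overlapped both LPS groups. The labelled knockdown appeared on the array as a small difference that missed the threshold. None of the 4 measured Kdm4 genes, and none of the 20 other histone lysine demethylases, was called by limma after adjustment. The unadjusted limma p was under 0.05 for 1 Kdm4 gene, with a negative difference, and for 2 of the others, 1 in each direction. Over all genes it was under 0.05 for 16.3%, 9.33% higher and 6.94% lower.

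**Figure D1:**
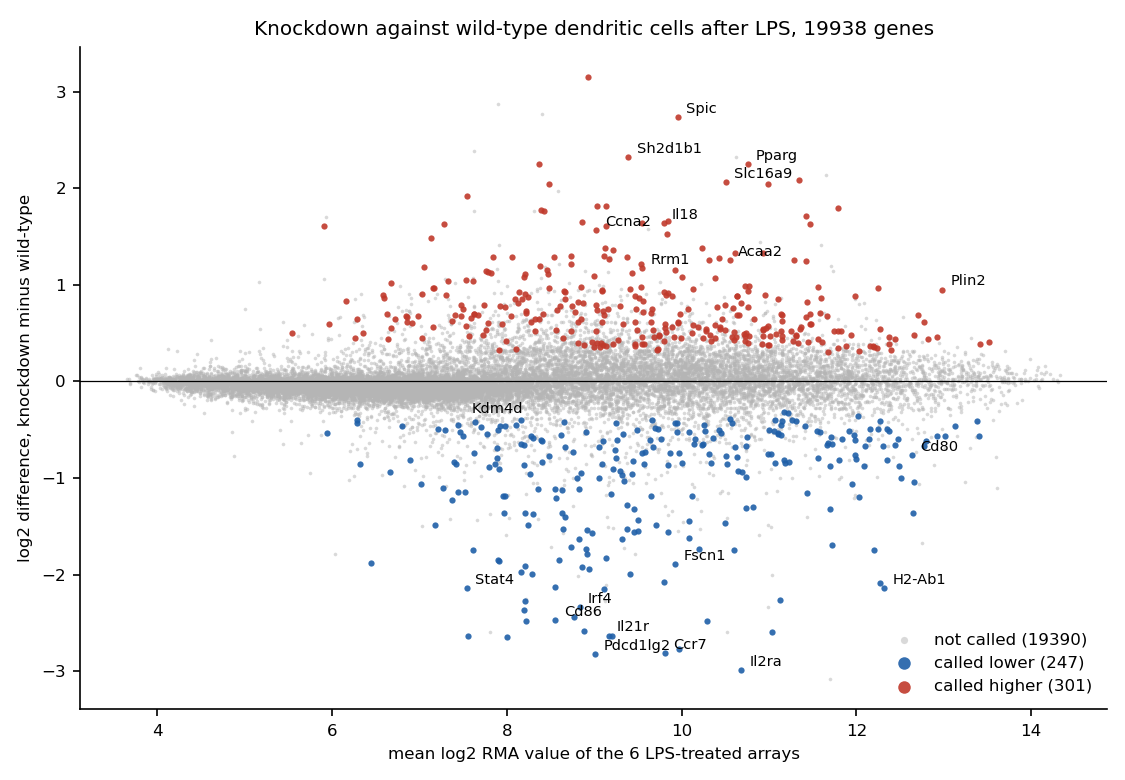
Each point is 1 of 19938 genes, with its mean log2 RMA value over the 6 LPS-treated arrays on the horizontal axis and the log2 difference, knockdown minus wild-type, on the vertical axis. Of the 301 genes called higher (red), 257 had a mean over all 9 arrays above that of the median gene, 7.61. Of the 247 called lower (blue), 225 did. Kdm4d, at -0.37, lies among genes not called (grey).

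In the knockdown, 301 genes rose (1.51% of the genes tested) and 247 fell (1.24%), 2.75% in all. The median difference over all genes was -0.03, with quartiles of -0.11 and 0.07. Of the genes that rose, 65 did so at least 2-fold, and of those that fell, 91. The direction was the same in all 3 pairs for every one of the 548 called genes, and the 3 knockdown values did not overlap the 3 wild-type values for 273 of the higher and 231 of the lower genes. Over all genes, 16.6% had groups that did not overlap, 8.21% with the knockdown higher and 8.38% with it lower. Without the pairing, limma called 80 genes higher (0.401%) and 72 lower (0.361%), 0.762% in all, and all of them were among the 548.

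The counts changed with the arrays that were left out. Replicate 2 stood apart: its pair differences had the widest spread over genes, with an SD of 0.39 against 0.31 in both other pairs. Without the 3 arrays of replicate 2, 870 genes rose and 582 fell, and 484 of the 548 were among them. Without replicate 1 the counts were 7 and 19, and without replicate 3 they were 0 and 0. In the fit without replicate 3, 873 positive and 704 negative differences had an unadjusted limma p under 0.05. All 548 called genes were among them, and the smallest limma adjusted p was 0.0541. Each paired limma fit without a whole replicate has 2 residual degrees of freedom, against 4 in the main fit. Single arrays also moved the counts. Without knockdown replicate 1 the counts were 118 higher and 131 lower, without knockdown replicate 2 they were 136 and 183, and without knockdown replicate 3 they were 14 and 23. Without wild-type LPS replicate 1, 2 or 3 they were 11 and 22, 187 and 126, and 2 and 5. The sign of the difference was kept for all 548 genes in each of these fits. Where a whole replicate was left out this was fixed in advance, because all pairs of each called gene shared a direction.

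Some ligands that dendritic cells show to T cells fell in the knockdown. Of 18 measured costimulatory and coinhibitory ligands, 4 fell and none rose, with a median difference of -0.13. Over all genes, 1.24% fell and 1.51% rose, and the median was -0.03. Cd86, a ligand of the T cell receptor CD28, read 7.82, 7.14 and 6.99 in the knockdown against 9.91, 9.78 and 9.68 in wild-type LPS cells. The groups did not overlap, and the knockdown values also lay below the unstimulated wild-type values of 8.83, 8.04 and 8.66. Cd86 fell by 2.47 (SE 0.18, adjusted p = 0.00484, limma), a 5.56-fold difference.

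Pdcd1lg2, which encodes the PD-1 ligand PD-L2, read 8.60, 7.32 and 6.87 in the knockdown and 10.97, 10.18 and 10.11 in wild-type LPS cells. All 3 knockdown values were also below the unstimulated ones, 10.77, 9.73 and 9.81. It fell by 2.82 (SE 0.16, limma adjusted p = 0.00262). Cd40, the receptor for T cell help, read 11.41, 9.90 and 11.34 against 12.73, 12.12 and 12.85. Knockdown replicate 2 was the lowest, and all 3 knockdown values stayed above the unstimulated values of 8.50, 8.20 and 8.26. Cd40 fell by 1.69 (SE 0.25), with a limma adjusted p of 0.0259 that became 0.0971 without the pairing. Cd80, the other CD28 ligand, fell by 0.76 (SE 0.09, limma adjusted p = 0.0138), and its second, dimmer probe set gave -1.03. The count of 4 was 3 without the pairing and 5 without replicate 2. It was 2 without knockdown replicate 3 or wild-type LPS replicate 1, 1 without replicate 1 or wild-type LPS replicate 3, and 0 without replicate 3.

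Genes of dendritic cell maturation and migration fell in part. All 21 measured members had a negative difference, with a median of -0.65, and 7 fell. The median over all genes was -0.03, and 1.24% of them fell. Because the list was chosen with earlier results of these data known, its counts describe these members and test nothing. Ccr7, the chemokine receptor that leads mature dendritic cells to lymph nodes, read 9.75, 7.71 and 7.74 in the knockdown and 11.54, 11.01 and 11.08 in wild-type LPS cells. Knockdown replicate 1 was the highest of the 3 and still lay below every wild-type LPS array. Ccr7 fell by 2.81 (SE 0.29), 7.01-fold, with a limma adjusted p of 0.0111 and of 0.0815 without the pairing. Fscn1, the actin-bundling protein of dendrites, read 9.20, 8.40 and 9.33 against 11.29, 10.22 and 11.09. It fell by 1.89 (SE 0.17, limma adjusted p = 0.00836), and its unstimulated values were 8.62, 8.11 and 8.19.

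Cd83, a surface marker of mature dendritic cells, fell by 1.79 (SE 0.17, limma adjusted p = 0.0103 and 0.106 without the pairing). Serpinb9, an inhibitor of granzyme B, fell by 1.56 (SE 0.21, limma adjusted p = 0.0215 and 0.0503 without the pairing). The count of 7 was 4 without the pairing and 11 without replicate 2. It was 1 without replicate 1, 2 without knockdown replicate 3 or wild-type LPS replicate 1, and 0 without replicate 3 or wild-type LPS replicate 3.

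**Figure D2:**
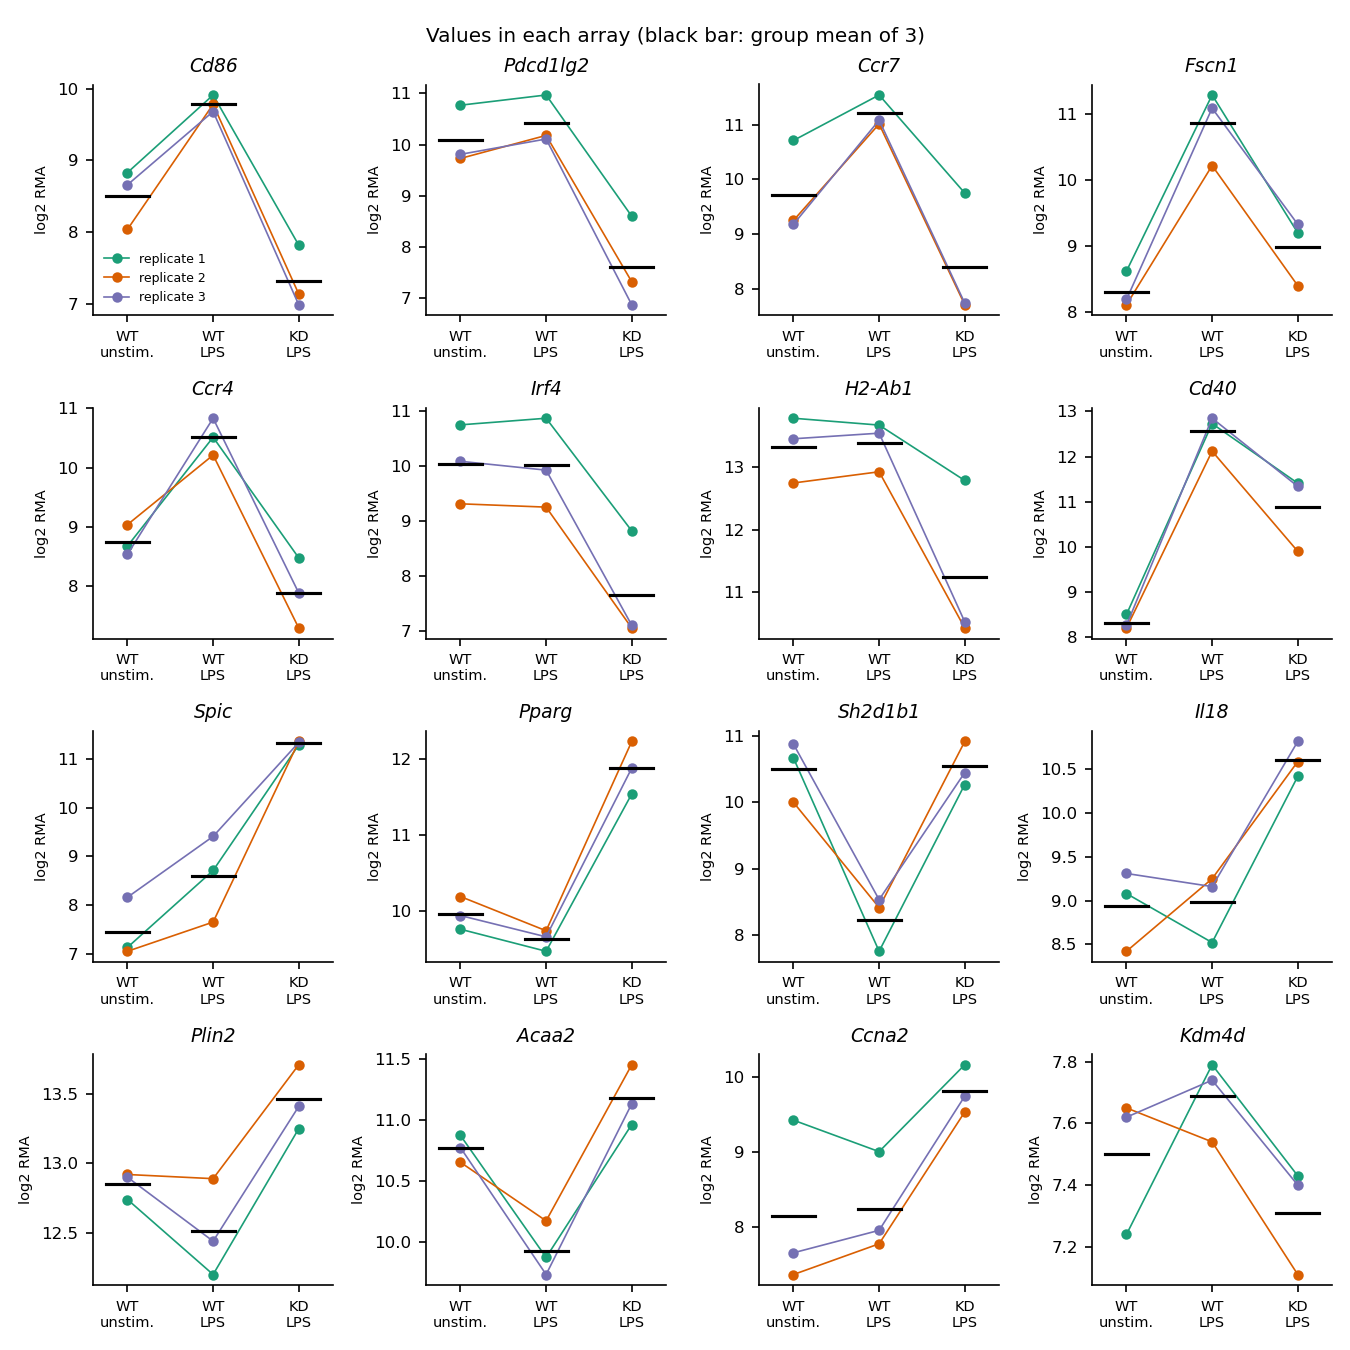
Log2 RMA values of 16 genes in each array, with 1 panel per gene, the 3 groups on the horizontal axis (WT, wild-type; KD, knockdown; unstim., unstimulated), lines joining arrays of 1 replicate number and black bars for group means of 3. Cd86 and Pdcd1lg2 in the knockdown lie below both wild-type groups, and Spic and Pparg lie above both.

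Several MHC class II genes fell, and so did Ciita, their transactivator. Promoters of class II genes carry a Y box, the inverted CCAAT motif with the core GATTGG that the factor NF-Y binds. Of the 16 measured genes of the list, 12 have an entry in the RefSeq promoter table (GRCm38.p6, 250 bases before to 50 after the start). A search for GATTGG on both strands found it in 9 of the 15 promoters of these genes, and in 16.1% of all 32851 promoters in that table. The 9 include promoters of Marchf1, Rfx5 and Rfxank, which are not class II chains, and H2-Ab1 has no entry. A match is a description of the letters and not a measured binding site. The promoters of 3 class II genes that fell are printed because they hold the forward motif within 101 bases before the start. Other called genes of the list differed: H2-DMa, which fell, has it 199 bases before one start and not at all at its other start, and Rfxank, which rose, has it 166 bases before the start. They lie on chromosome 17 on the plus strand, are written 5′ to 3′, and capitals mark GATTGG or its reverse complement.
H2-Eb1, chr17:34305617-34305916: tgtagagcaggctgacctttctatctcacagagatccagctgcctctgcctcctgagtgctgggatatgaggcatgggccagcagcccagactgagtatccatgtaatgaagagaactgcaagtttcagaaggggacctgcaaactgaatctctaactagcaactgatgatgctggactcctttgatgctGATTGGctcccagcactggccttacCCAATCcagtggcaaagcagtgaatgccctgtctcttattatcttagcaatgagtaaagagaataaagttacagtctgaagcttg
H2-Eb2, chr17:34325425-34325724: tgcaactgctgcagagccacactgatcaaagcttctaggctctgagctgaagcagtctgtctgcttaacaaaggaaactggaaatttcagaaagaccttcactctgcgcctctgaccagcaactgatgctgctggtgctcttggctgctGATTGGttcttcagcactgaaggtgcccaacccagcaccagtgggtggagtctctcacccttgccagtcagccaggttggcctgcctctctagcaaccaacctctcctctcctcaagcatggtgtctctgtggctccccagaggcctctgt
H2-Ob, chr17:34238655-34238954: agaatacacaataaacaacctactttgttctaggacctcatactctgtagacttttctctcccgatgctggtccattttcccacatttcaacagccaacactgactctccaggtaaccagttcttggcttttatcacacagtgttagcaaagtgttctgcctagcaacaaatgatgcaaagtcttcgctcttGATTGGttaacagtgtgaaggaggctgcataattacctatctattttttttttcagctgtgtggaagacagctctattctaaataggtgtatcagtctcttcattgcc
The forward motif began 60 bases before the start of H2-Eb1, 101 before that of H2-Eb2 and 58 before that of H2-Ob. It also began 49 bases before the start of H2-Aa and 44 before that of H2-Oa, which were not called. Of the 12 genes with an entry, 5 held it 40 to 110 bases before the start, as did 3.67% of all promoters.

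Of the 16 measured genes of the class II presentation list, 6 fell and 1 rose, with a median difference of -0.63. Of all genes, 1.24% fell and 1.51% rose. The list holds genes such as Ctss, Ifi30 and Rfx5 beside the class II chains. H2-Ab1, a class II beta chain, read 12.79, 10.42 and 10.52 in the knockdown and 13.68, 12.93 and 13.55 in wild-type LPS cells. Replicate 1 showed the smallest pair difference, and its knockdown value lay close to the lowest wild-type value. H2-Ab1 fell by 2.14 (SE 0.39) with a limma adjusted p of 0.0433, and 0.158 without the pairing. H2-Eb1, another beta chain, read 12.57, 10.60 and 10.52 against 13.62, 12.86 and 13.48, and fell by 2.09 (SE 0.34, limma adjusted p = 0.032 and 0.125 without the pairing). H2-Eb2 fell by 2.65 (SE 0.38, limma adjusted p = 0.0238 and 0.142 without the pairing), and H2-Ob, a chain of the DO modulator of peptide loading, by 1.57 (SE 0.29, limma adjusted p = 0.0442 and 0.171 without the pairing).

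Ciita, the class II transactivator, read 8.53, 7.61 and 7.50 in the knockdown and 10.23, 8.69 and 9.30 in wild-type LPS cells. It was lower in each pair, and, named outside the rule after its values were seen, fell by 1.53 (SE 0.21, limma adjusted p = 0.0228 and 0.305 without the pairing). Rfxank, a subunit of the RFX complex that binds class II promoters, rose by 0.39 (SE 0.06, limma adjusted p = 0.0244 and 0.0881 without the pairing). The count of 6 lower members was 0 without the pairing, 2 in the paired fit of the 6 LPS arrays alone, 4 with arrays centred on their medians, 3 without replicate 1, 1 without wild-type LPS replicate 2, and 0 without replicate 3, knockdown replicate 3, wild-type LPS replicate 1 or wild-type LPS replicate 3. Beside 1.24% of all genes, 2 of 14 MHC class I presentation genes fell, with a list median of -0.38. They were Psmb8, an immunoproteasome subunit, at -0.77, and Tapbpl, a peptide editor, at -0.61, and neither was called without the pairing (limma adjusted p = 0.059 and 0.163).

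Several receptors for cytokines and chemokines fell. Of 34 cytokine receptor subunits, 7 fell, none rose and 29 had a negative difference, with a median of -0.27. Among all genes 1.24% fell, and the median was -0.03. The count of 7 was 2 without the pairing, 4 with the 6 LPS arrays alone, 12 without replicate 2, 3 without knockdown replicate 1 or wild-type LPS replicate 2, 1 without knockdown replicate 3, and 0 without replicate 1, replicate 3, wild-type LPS replicate 1 or wild-type LPS replicate 3. Il2ra, the high-affinity subunit of the interleukin-2 receptor, read 10.13, 9.62 and 7.82 in the knockdown and 12.27, 12.28 and 11.98 in wild-type LPS cells. Knockdown replicate 3 was the lowest by a wide margin, and every knockdown value was below the unstimulated values of 10.83, 11.28 and 10.54. Il2ra fell by 2.99 (SE 0.38, limma adjusted p = 0.019), 7.94-fold. Il21r, the interleukin-21 receptor, read 8.57, 7.60 and 7.39 against 10.51, 11.23 and 9.72, and fell by 2.63 (SE 0.33, limma adjusted p = 0.0181).

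Ccr4, a receptor for CCL17 and CCL22, was the single called gene among the 19 receptors of the chemokine receptor list, which leaves out Ccr7, described with the maturation genes. It read 8.48, 7.30 and 7.89 in the knockdown and 10.51, 10.21 and 10.83 in wild-type LPS cells, and its unstimulated values of 8.68, 9.04 and 8.54 lay above the knockdown. Ccr4 fell by 2.63 (SE 0.29, limma adjusted p = 0.0128). The decoy receptor Il1r2 fell by 1.73 (SE 0.25, limma adjusted p = 0.025 and 0.548 without the pairing), with replicate 2 far below the others in both groups: it read 10.38, 8.07 and 9.56 against 12.11, 9.14 and 11.95. Il6st, the shared subunit gp130, fell by 0.93 (SE 0.13, limma adjusted p = 0.0228 and 0.195 without the pairing). Stat4, which signals below the interleukin-12 receptor, fell by 2.14 (SE 0.34, limma adjusted p = 0.0316) and was the single called gene of the 16 in the STAT, JAK and SOCS list. Beside the single calls in this list and among the chemokine receptors, 2.75% of all genes were called, and 1.24% fell. Socs2, a feedback inhibitor of cytokine signalling that was listed with the maturation genes, also fell, by 1.31 (SE 0.19, limma adjusted p = 0.0244). It was named outside the rule, and its second, dimmer probe set gave -0.77 (limma adjusted p = 0.0573).

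Of 24 inflammatory cytokines 1 rose and none fell, and of 24 chemokines 3 fell and none rose, beside 1.51% of all genes that rose and 1.24% that fell. Their median differences were -0.02 and -0.12. Il18, whose product needs cleavage by an inflammasome, rose by 1.64 (SE 0.23, limma adjusted p = 0.0238), from 8.52, 9.25 and 9.16 in wild-type LPS cells to 10.42, 10.59 and 10.82. The count of 3 chemokines was 0 without replicate 1, replicate 3, wild-type LPS replicate 1 or wild-type LPS replicate 3, 1 without knockdown replicate 2 or 3, and 6 without knockdown replicate 1. The chemokines Ppbp, Cx3cl1 and Ccl1 fell by 2.27, 1.54 and 0.83, with limma adjusted p-values of 0.0228, 0.00618 and 0.0343, the last 0.0896 without the pairing. Tnf, chosen after its values were seen, read 14.01, 13.87 and 13.99 in the knockdown and 14.03, 13.71 and 14.12 in wild-type LPS cells, and the groups overlapped. Il6, chosen likewise, read 12.44, 11.78 and 12.78 against 12.87, 11.73 and 12.91, a difference of -0.17 (SE 0.40).

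None of 20 NF-kB genes and none of 30 type I interferon response genes was called by limma after adjustment. The unadjusted limma p was under 0.05 for 3 NF-kB genes, all with negative differences, and for 4 interferon genes, 3 of them negative, beside the 16.3% of all genes. Their median differences were -0.13 and -0.11. The smallest p-values were those of Traf2, an adaptor of TNF receptor signalling, at -0.45 (SE 0.09, limma adjusted p = 0.0581), and Usp18, a brake on interferon signalling, at -0.49 (SE 0.12, limma adjusted p = 0.09).

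Transcription factors moved in both directions. Of 16 dendritic cell lineage factors, 4 fell and none rose, beside 1.24% and 1.51% of all genes, with a median of -0.22. Irf4, needed for a subset of dendritic cells and for their migration, read 8.82, 7.06 and 7.11 in the knockdown and 10.86, 9.25 and 9.92 in wild-type LPS cells. It was lower in each pair, and it fell by 2.34 (SE 0.18, limma adjusted p = 0.00601 and 0.124 without the pairing). Runx3 fell by 1.40 (SE 0.14, limma adjusted p = 0.0111). Irf8 and Batf3, factors of the cross-presenting subset, fell by 0.91 and 0.61, with limma adjusted p-values of 0.0201 and 0.0435 that became 0.091 and 0.108 without the pairing. The count of 4 was 1 without the pairing or knockdown replicate 3, 2 without knockdown replicate 1 or wild-type LPS replicate 2, and 0 without replicate 1, replicate 3, wild-type LPS replicate 1 or wild-type LPS replicate 3.

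Of 24 macrophage transcription factors and nuclear receptors, 3 rose and none fell, beside 1.51% and 1.24% of all genes, with a median of 0.08. Spic, the factor of red pulp macrophages, read 11.29, 11.36 and 11.34 in the knockdown and 8.71, 7.65 and 9.41 in wild-type LPS cells. The knockdown arrays were nearly equal while the wild-type arrays spread widely. Spic rose by 2.74 (SE 0.31, limma adjusted p = 0.0135), 6.67-fold. Pparg, the lipid-sensing nuclear receptor of alveolar macrophages and fat cells, read 11.54, 12.23 and 11.88 against 9.47, 9.74 and 9.66, and the unstimulated values were 9.76, 10.19 and 9.94. It rose by 2.25 (SE 0.09, limma adjusted p = 0.000522). Nr1h3, the oxysterol receptor LXR alpha, rose by 1.07 (SE 0.18, limma adjusted p = 0.0345 and 0.149 without the pairing). The count of 3 was 1 without replicate 1, wild-type LPS replicate 1 or wild-type LPS replicate 3, and 0 without replicate 3.

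**Figure D3:**
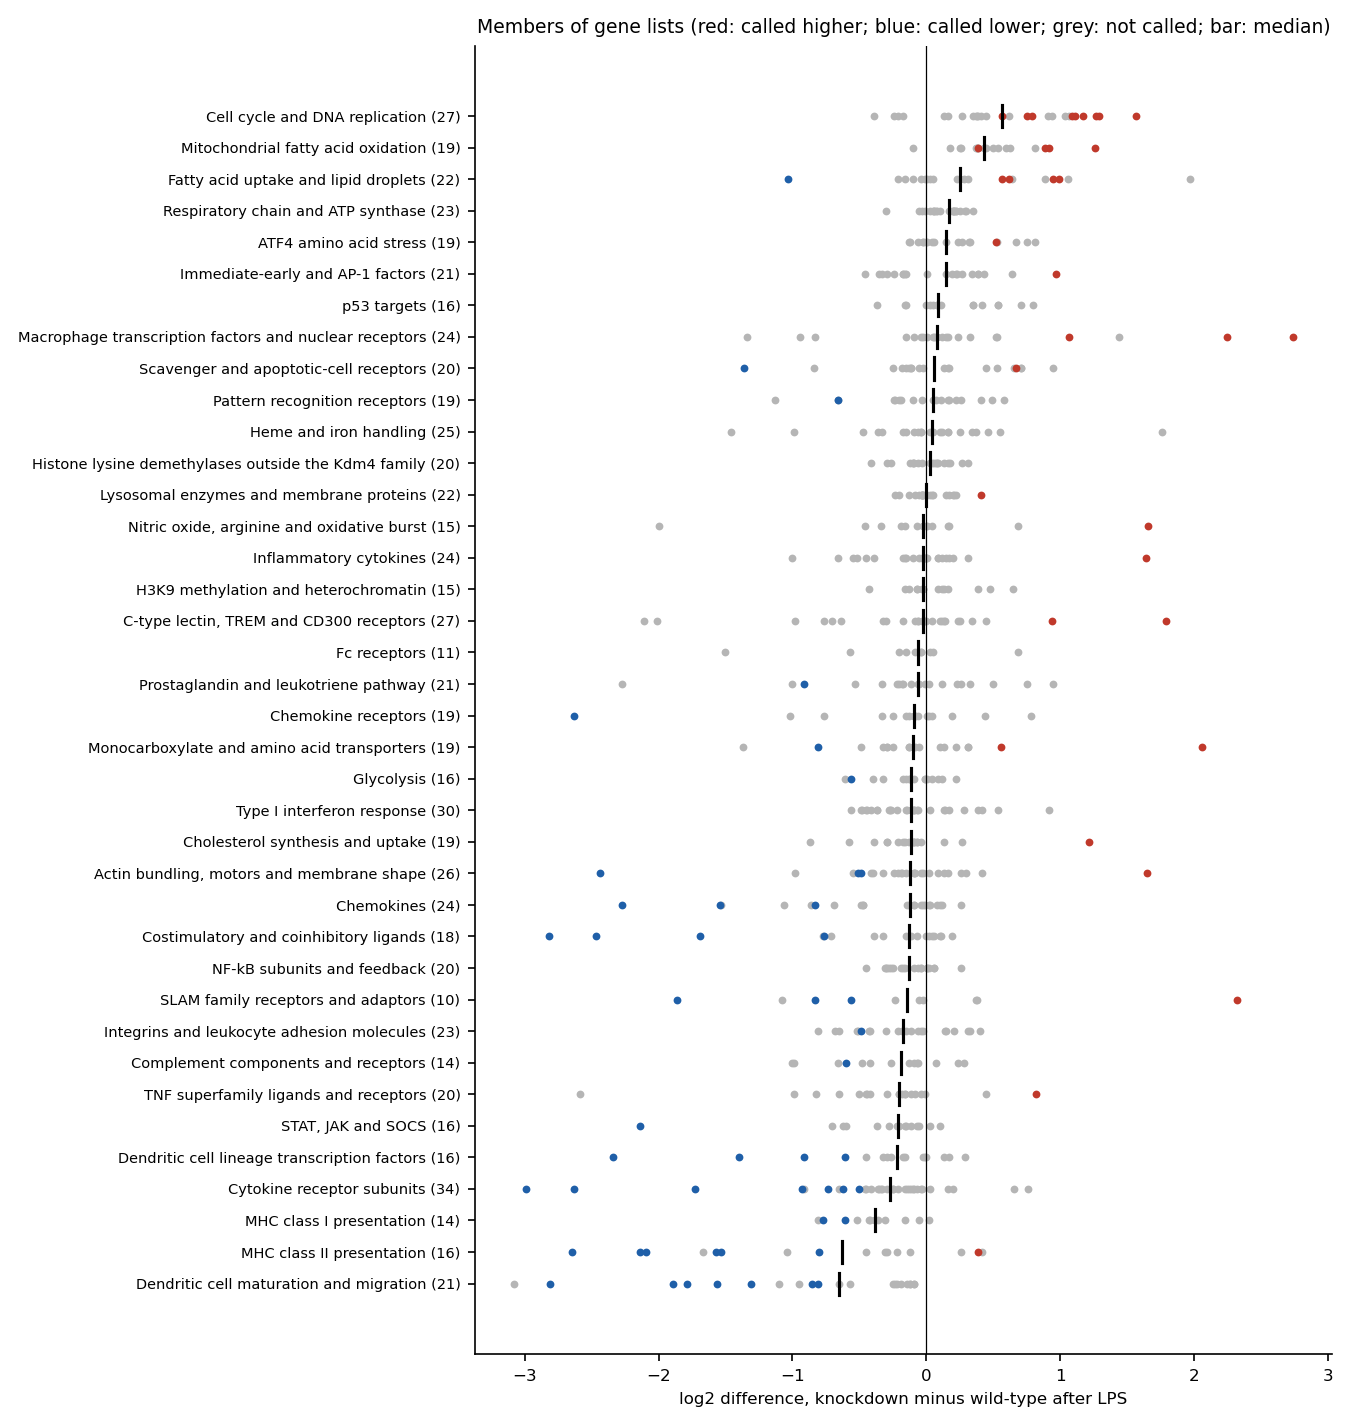
Log2 difference, knockdown minus wild-type, of each measured member of the gene lists, 1 row per list with its number of measured members, ordered by the median (black bar). Red points were called higher, blue points lower and grey points were not called; dendritic cell maturation has the lowest median, -0.65, and cell cycle the highest, 0.57.

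Some genes of lipid use rose. Of 19 mitochondrial fatty acid oxidation genes, 4 rose, none fell and 18 had a positive difference, with a median of 0.43. Among all genes 1.51% rose, and the median was -0.03. Acaa2, the last enzyme of the oxidation cycle, read 10.96, 11.45 and 11.13 in the knockdown and 9.87, 10.17 and 9.73 in wild-type LPS cells. The groups did not overlap, and the unstimulated values of 10.87, 10.65 and 10.77 lay between them. Acaa2 rose by 1.26 (SE 0.14, limma adjusted p = 0.0128), 2.39-fold. Acads, Etfdh and Eci1 rose by 0.92, 0.89 and 0.39, with limma adjusted p-values of 0.0259, 0.0436 and 0.0414, and 0.0578, 0.0771 and 0.411 without the pairing. The count of 4 was 1 without the pairing, 2 with arrays centred on their medians, 11 without replicate 2, 2 without knockdown replicate 1, 1 without knockdown replicate 2, and 0 without replicate 1, replicate 3, knockdown replicate 3, wild-type LPS replicate 1 or wild-type LPS replicate 3.

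Of 22 genes of fatty acid uptake and lipid droplets, 4 rose and 1 fell, with a median of 0.25. The shares over all genes were 1.51% and 1.24%. Plin2, which coats lipid droplets, read 13.25, 13.71 and 13.41 in the knockdown and 12.20, 12.89 and 12.44 in wild-type LPS cells. It rose by 0.95 (SE 0.10, limma adjusted p = 0.0128 and 0.0636 without the pairing). Dgat1, which makes triglyceride, rose by 0.99 (SE 0.13, limma adjusted p = 0.0205 and 0.108 without the pairing), Abcg1, a sterol exporter, by 0.62 (limma adjusted p = 0.0439 and 0.144 without the pairing) and Plin3, another droplet coat protein, by 0.57. Lipe, the hormone-sensitive lipase, fell by 1.03 (SE 0.18, limma adjusted p = 0.0378 and 0.0536 without the pairing). Slc16a9, a monocarboxylate transporter family member, rose by 2.06 (SE 0.21, limma adjusted p = 0.0118), but its second, dimmer probe set gave 0.11. The count of 4 lipid genes was 1 without the pairing, 7 without replicate 2, 2 without wild-type LPS replicate 2, and 0 without replicate 1, replicate 3, knockdown replicate 3, wild-type LPS replicate 1 or wild-type LPS replicate 3.

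Some genes of proliferation rose in the paired fit. Of 27 cell cycle and DNA replication genes, 9 rose, none fell and 23 had a positive difference, with a median of 0.57. Among all genes 1.51% rose, and the median was -0.03. Bub1b, a mitotic checkpoint kinase, read 9.62, 10.52 and 9.93 in the knockdown and 8.53, 9.35 and 8.33 in wild-type LPS cells. Replicate 2 was the highest in both groups. Ccna2, cyclin A2, rose by 1.57 (SE 0.26, limma adjusted p = 0.0343 and 0.255 without the pairing). Rrm1 and Rrm2, the subunits of ribonucleotide reductase, rose by 1.17 and 1.27, and Bub1b by 1.29, with limma adjusted p-values of 0.0123, 0.0426 and 0.0354 that became 0.0729, 0.152 and 0.142 without the pairing. None of the 9 was called without the pairing. The count was 5 with arrays centred on their medians, 2 without replicate 1, knockdown replicate 2 or wild-type LPS replicate 2, and 0 without replicate 3, knockdown replicate 3, wild-type LPS replicate 1 or wild-type LPS replicate 3.

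**Figure D4:**
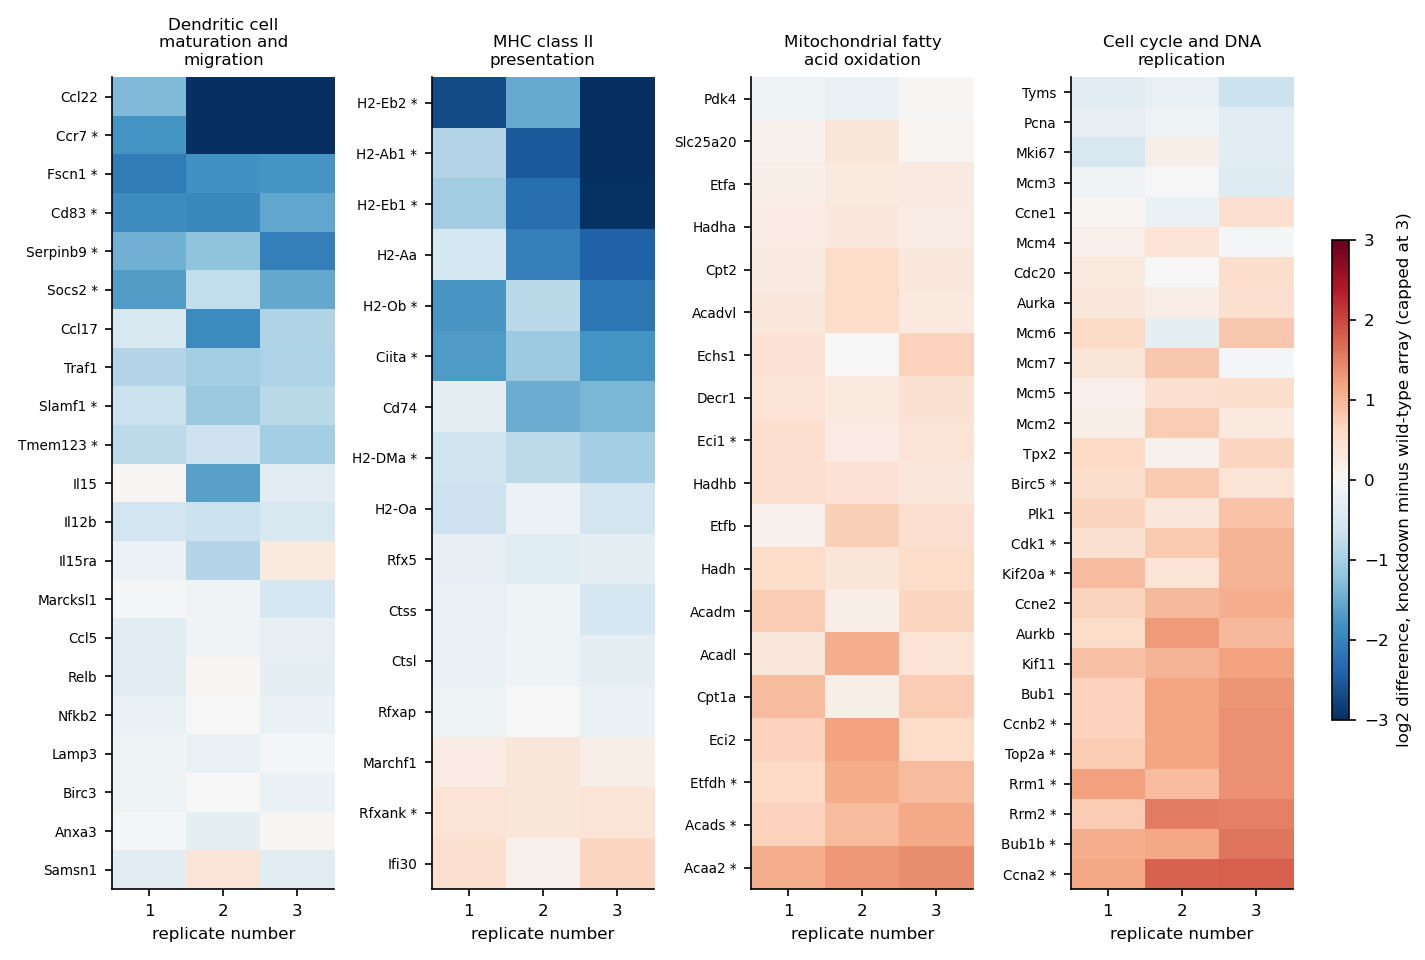
Log2 difference of each pair of arrays with the same replicate number, knockdown minus wild-type, for the members of 4 gene lists, with colour from blue (lower in the knockdown) to red (higher), capped at 3; an asterisk marks a called gene. H2-Ab1 differs less in replicate 1 than in the other pairs, whereas Acaa2 is red in all 3.

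Single genes with large differences came from other families. Sh2d1b1, an adaptor of SLAM family receptors, read 10.27, 10.92 and 10.45 in the knockdown and 7.75, 8.41 and 8.53 in wild-type LPS cells. Its unstimulated values, 10.67, 10.00 and 10.88, overlapped the knockdown. It rose by 2.32 (SE 0.28, limma adjusted p = 0.0161). Of 10 SLAM family genes it was the single one that rose, and Slamf8, Slamf9 and Slamf7 fell by 1.86, 0.83 and 0.56. The shares over all genes were 1.51% that rose and 1.24% that fell. Slamf9 and Slamf7 were not called without the pairing (limma adjusted p = 0.209 and 0.148). Maoa, monoamine oxidase A, rose by 1.66 (SE 0.15, limma adjusted p = 0.00836). Myo6, a motor that moves toward the minus end of actin, rose by 1.65 (SE 0.17, limma adjusted p = 0.0111).

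Tmem176b fell by 2.37 (SE 0.11, limma adjusted p = 0.00139), Antxr1, an anthrax toxin receptor, by 2.44 (SE 0.27, limma adjusted p = 0.0128), and Gja5, a gap junction protein, by 2.48 (SE 0.23, limma adjusted p = 0.00966). Hprt, a gene often used as a reference, rose by 0.69 (SE 0.10, limma adjusted p = 0.0228) and was the single called gene among 11 reference genes, whose median was 0.03. Over all genes 2.75% were called, and 1.51% rose.

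Some markers of cell types the culture could hold also fell. Beside 1.24% of all genes, 4 of 19 dendritic cell markers fell. They were Irf4, Irf8 and Batf3, which are 3 of the 4 lineage factors that fell, and Kit, which is also in the mast cell list. The dendritic cell list's mean level ran from 8.52 to 8.90 in the knockdown and from 8.87 to 9.53 in wild-type LPS cells. Of 18 macrophage and monocyte markers none was called, although 3 positive and 3 negative differences had an unadjusted limma p under 0.05, beside 9.33% and 6.94% of all genes, and the mean ran from 10.52 to 10.97 and from 10.84 to 11.14. Of 18 mast cell and basophil markers 3 fell (Kit, Cpa3 and Gata2), with means from 6.49 to 6.68 and from 6.94 to 7.17. Kit and Gata2 were also the 2 called of 17 hematopoietic progenitor markers, with means from 7.87 to 7.99 and from 8.15 to 8.26. Erythroid and megakaryocyte means ran from 7.91 to 8.26 and from 8.29 to 8.43, with none of 9 markers called. The median difference was -0.17 for dendritic cell markers and -0.15 for mast cell and basophil markers. It was -0.14 for progenitor markers and -0.10 for erythroid and megakaryocyte markers, beside -0.03 over all genes. Single members weigh in a mean level: the lowest mast cell and basophil difference was -2.34. Il7r, at -0.62, was the 1 called gene of 16 lymphocyte markers. Mpo was the single called gene of 20 neutrophil markers, with means from 8.45 to 9.76 and from 8.98 to 10.35. None of these markers was called without the pairing, where the limma adjusted p was 0.0729 for Kit, 0.317 for Cpa3, 0.0593 for Gata2 and 0.0825 for Mpo. The lowest neutrophil mean of each group was replicate 2. The part of cell composition in the fall of the maturation, class II and receptor genes was not tested.

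**Figure D5:**
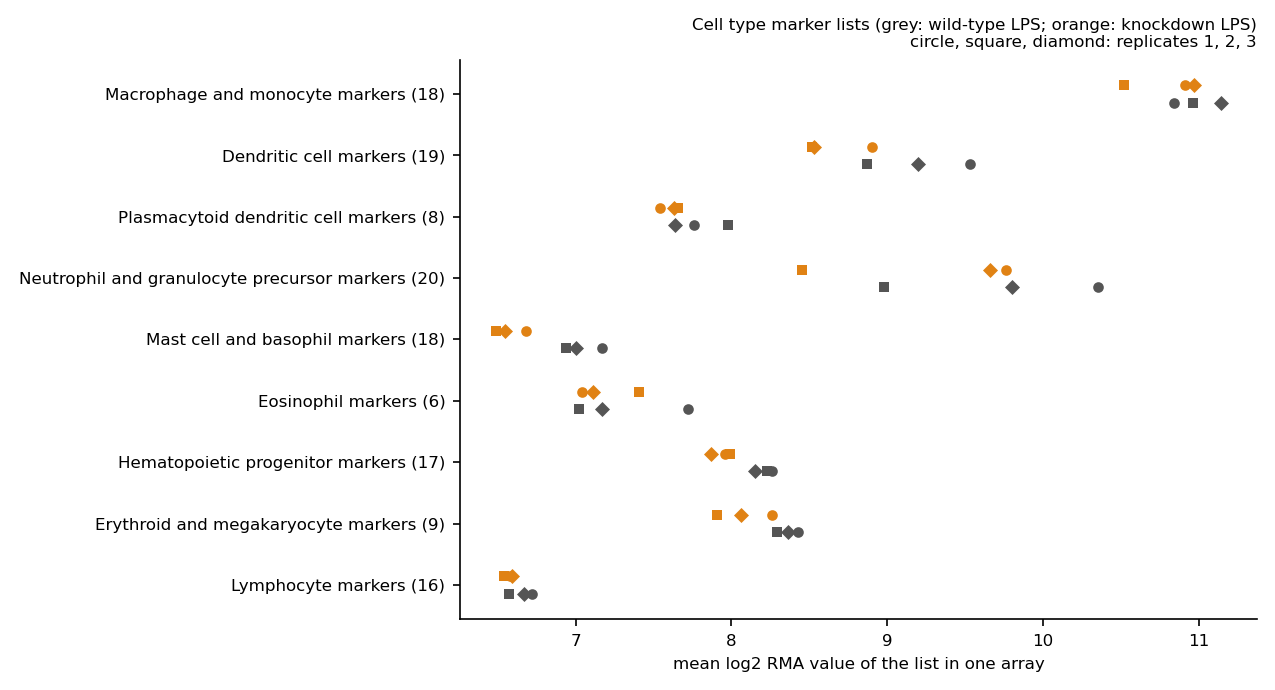
Mean log2 RMA value of each cell type marker list in each array, with the number of measured markers in brackets, wild-type LPS arrays in grey and knockdown arrays in orange, and symbols for replicates 1 to 3. The mast cell and basophil means do not overlap, at 6.49 to 6.68 in the knockdown and 6.94 to 7.17 in wild-type cells. The hematopoietic progenitor means and the erythroid and megakaryocyte means do not overlap either. The median member differences of these lists, in this order, were -0.15, -0.14 and -0.10. The neutrophil means of replicate 2 lie below those of the other replicates.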

How the data were processed

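RNA from 9 arrays was used, 3 per group. The authors deposited log2 values made with RMA, a method of background correction, normalization and summary per probe set, as the submitters' processing notes name it without a version. The array's genome build is not given in the sources used here. Of 35556 deposited probe sets, 21789 named a single gene and 13767 did not and were left out. The probe set with the highest mean represented each of 19938 genes. Tied values between arrays occurred in 41.1% of genes and in 43 of the 548 called genes; with 3 or more arrays tied, the tied value was the gene's median in 4308 of 4316 genes. Each of the 36 pairs of arrays shared the value of 357 to 1417 genes, so no pair held identical values throughout.

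With limma 3.58.1 in R 4.3.3, all 9 arrays were fitted with a mean per group and the replicate number as a block, with two-sided moderated tests and Benjamini-Hochberg adjustment over 19938 genes. Pairing by biological replicate number was set with the choice of samples. Deviations from group means correlated by 0.14 to 0.48 in all 9 same-number pairs of arrays, and by -0.41 to 0.25 in the 18 others. The ranges overlap, and the correlations come from the same data. The design text speaks of independent cultures and does not say that a number marks a shared one. The same fit without the block was the main alternative. The fit was tested on simulated data.

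Members, lists and tests were chosen with earlier results of these data known. Named genes were Kdm4d, the 15 largest differences in each direction among called genes without overlap of the groups, and of each of 49 lists up to 4 called members per direction or, with none called, the 2 with the smallest p; numbered loci were passed over. Ciita, Socs2, Tnf, Il6 and Gm5150 are named outside the rule. Lists were described by counts and medians. Alternatives changed the pairing, arrays, probe rule, filter, normalization, centring, variance model and replicates.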

Additional observations from a re-analysis of the deposited data

How the results depend on the processing

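The direction of the difference was the same in every alternative for all called genes that the alternative tested. Leaving out the block or a whole replicate could not change it, because all pairs of each called gene shared a direction. Without the replicate block the counts were 80 higher and 72 lower, and with arrays centred on their medians 150 genes were lower. Leaving out arrays gave 0 to 870 genes higher and 0 to 582 lower, the extremes being without replicate 3 and without replicate 2. The number of genes called stayed within 1.5 times the main counts when the fit used the 6 LPS arrays only, the mean of a gene's probe sets, the brighter genes, a second quantile normalization, or an intensity trend with a robust prior. The genes differed more than the counts: the fit of the 6 LPS arrays called 495 genes, 314 of them among the 548, and 27 named genes lost their call there. An alternative chosen after seeing the data kept the 11736 genes without tied values, and gave 324 higher and 275 lower, with 500 of the 505 main calls among these genes. Of the 118 named genes other than Kdm4d, 93 were called, and 62 of these lost their call without the replicate block. Kdm4d passed the threshold in none of the alternatives that tested it; it is not among the brighter genes. The cause of these changes was not tested. Array number and signal over background limit what dim genes can show.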

Other observations

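Of the probe sets that name several genes, 7 of 1621 were higher and 2 were lower in the knockdown. Of those that name none, 30 of 12146 were higher and 10 were lower. These counts come from a separate paired fit, adjusted over all 35556 probe sets. Of all genes in the main fit, 1.51% rose and 1.24% fell, under another adjustment. Gm5150, a numbered locus outside the naming rule and named after its values were seen, read 10.62, 10.41 and 10.51 in the knockdown and averaged 7.36 (SD 0.35, n = 3) in wild-type LPS cells. It was the single called gene that rose at least 8-fold, by 3.15 (SE 0.16, limma adjusted p = 0.00139).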
